A study of Rattus norvegicus with 40 samples.

Results

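The RNA of 10 genes listed as markers of resting or activated hepatic stellate cells was followed in rat liver during diethylnitrosamine (DEN)-induced hepatocarcinogenesis. Some of them are also expressed by other cells. The genes were chosen by symbol among the 17337 genes of the count tables, and all 10 had a row. They comprise the contractile genes Acta2 and Tagln, the intermediate filament genes Des and Vim, the platelet-derived growth factor receptors Pdgfra and Pdgfrb, the surface glycoprotein Thy1, the matrix crosslinking enzyme Loxl2, and the quiescence genes Lrat and Reln. RNA-seq was performed on 40 liver libraries from 24 Fischer 344 male rats. DEN, a carcinogen activated by hepatocytes, was given by weekly intra-peritoneal injection at 50 mg/kg from the age of 7 weeks. The groups were non-tumoral tissue (NT) after 8 weeks of DEN, NT and tumor nodules after 14 weeks of DEN, NT and tumor nodules at 20 weeks, when 14 weeks of DEN had been followed by 6 weeks without it, and liver of age-matched rats without DEN (no DEN) at 8, 14 and 20 weeks. Each group held 4 rats, and NT and 2 nodules came from the same rats at 14 and 20 weeks. As a model the series is therefore limited to males of this single strain, and NT and nodules are not separate animals.

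Hepatic stellate cells lie between hepatocytes and the sinusoidal endothelium and store vitamin A as retinyl esters, which LRAT makes. After injury they can lose these stores and become myofibroblasts, which express smooth muscle actin and deposit and crosslink the collagen of the fibrous scar. Platelet-derived growth factor acts on them through its receptors as a mitogen, and transforming growth factor beta promotes their matrix production.

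Counted read pairs ranged from 20528515 to 39355849 in all libraries but 1 and reached 160622633 in the NT library of rat H26 at 20 weeks, with a median of 30477421 over all 40. Levels are given as CPM, the count of a gene relative to the library size after scaling by the trimmed mean of M values (TMM), 1 value per rat and tissue, with the reads of both nodules of a rat added. They depend on transcript length, so levels are compared between groups and not between genes. Hepatocyte markers were abundant in every group, as the label liver requires, but their summed level was 229160 to 259930 CPM without DEN at 14 weeks and 141310 to 181100 CPM in NT. At 14 weeks the summed level of the vascular smooth muscle markers overlapped between the groups, and those of the endothelial and cholangiocyte markers were higher in NT. The 5 endothelial markers summed to 83.3 to 129 CPM without DEN and 167 to 212 CPM in NT, and the 4 cholangiocyte markers in the tables to 15.9 to 22.95 CPM and 36.5 to 84.3 CPM. In whole tissue, more cells of a type and more RNA per cell cannot be told apart, and the part of cell composition in the results given here was not tested. All DEN-treated rats were lettered F or H and all no DEN rats H, and the labels do not explain the letters.

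In NT liver, 7 of the 10 genes rose above the no DEN level at 8 weeks and 7 at 14 weeks, and these 7 were the same genes at both times. They were Acta2, Tagln, Des, Vim, Thy1, Loxl2 and Lrat. At 14 weeks Pdgfrb fell. At 20 weeks, 6 weeks after the last injection, Tagln, Des, Vim and Loxl2 were still higher, by 1.55-fold to 1.77-fold, whereas Acta2 did not pass the test. These 4 calls at 20 weeks depended on single rats. None of them was kept without no DEN rat H15 or without H16, 2 were kept without F03 (Tagln and Loxl2) or H14 (Tagln and Des), 3 without H25, H26 or H28, and all 4 without H13. A gene was called higher or lower where the adjusted p did not exceed 0.05 and the log2 fold change was 0.5 or more in either direction, by the quasi-likelihood test of edgeR on counts with Benjamini-Hochberg adjustment over all genes tested. Under this rule 16.5% of 10812 genes were higher and 5.21% lower at 8 weeks, 22.8% of 11016 were higher and 9.85% lower at 14 weeks, and 14.3% of 10827 were higher and 3.82% lower at 20 weeks. Of all genes called, 76%, 69.8% and 78.8% were thus higher at the 3 times, and 93%, 94.3% and 93.9% when libraries were scaled by total counts alone. The median log2 fold change of the 10 genes was 0.98 at 8 weeks and 1.09 at 14 weeks, beside -0.01 and 0.02 over all genes. At 20 weeks it was 0.47 over the 9 genes tested, beside 0.02. Thy1 passed the filter on low counts only through the NT samples, where it was high, so a gene with its no DEN counts had to differ to be tested, and its place in these counts and medians is a description.

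**Figure D1:**
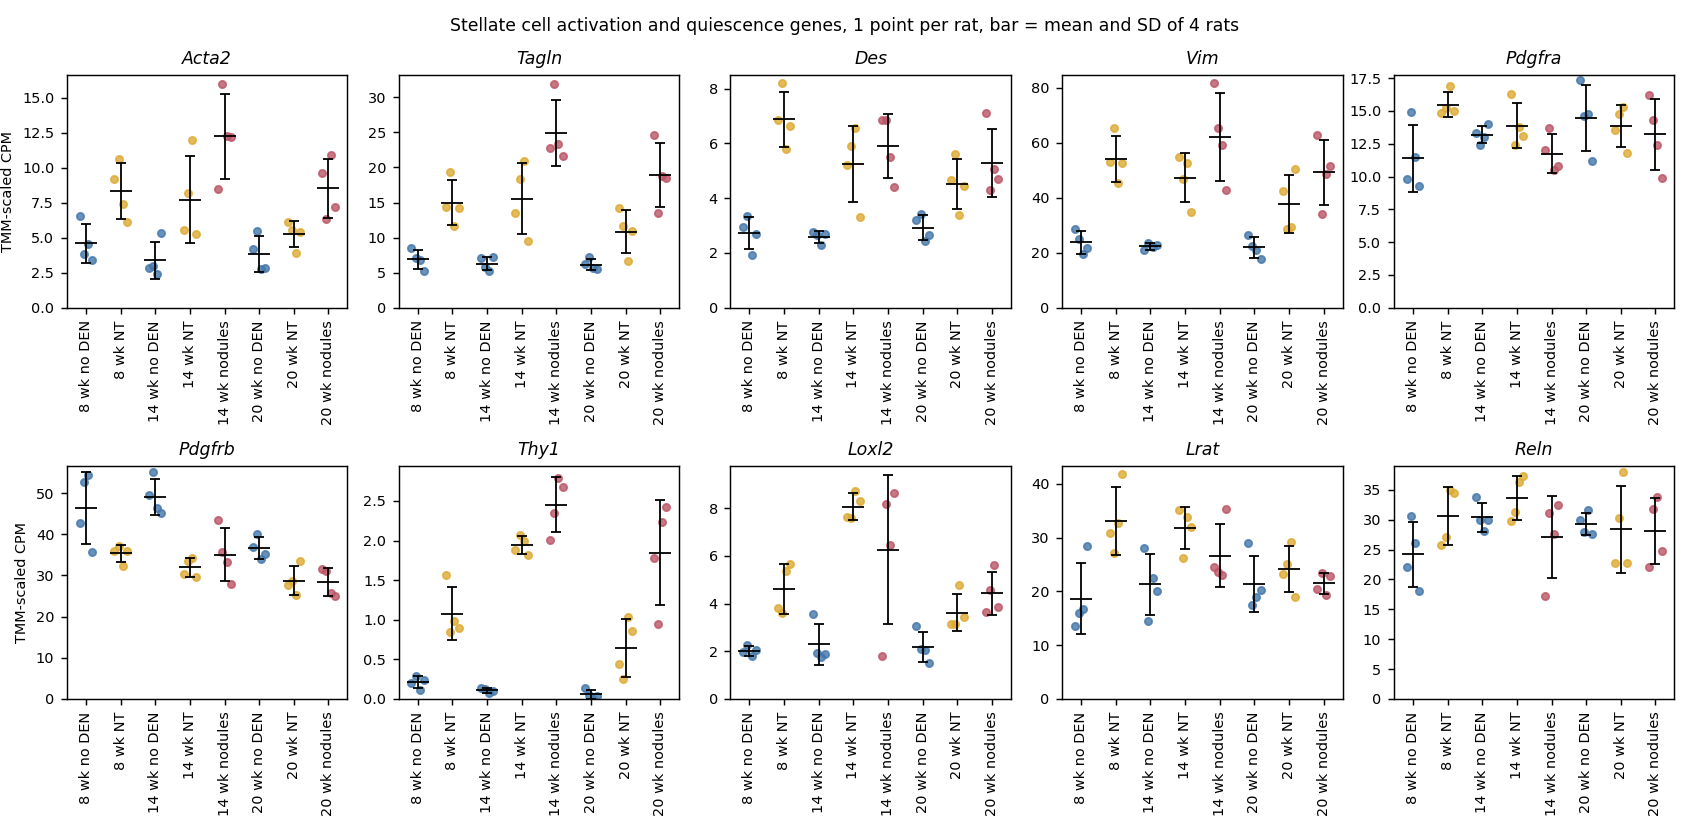
TMM-scaled CPM of each gene (vertical axes, starting at 0) in the 8 groups by week, treatment and tissue. Points are rats (blue, no DEN; yellow, NT; red, nodules), and bars give the mean and SD of 4 rats. Thy1 ran from 0.06 CPM without DEN at 20 weeks to 2.45 CPM in nodules at 14 weeks, while Pdgfra stayed between 11.4 and 15.5 CPM in all group means.

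Acta2 encodes alpha smooth muscle actin, the classical marker of activated stellate cells, and is also expressed by vascular smooth muscle. At 8 weeks its level was 6.55, 3.82, 4.58 and 3.38 CPM in the no DEN rats, and 9.22, 10.6, 7.40 and 6.13 CPM in NT. Only the lowest NT rat, H18, lay within the no DEN range. The mean rose from 4.58 ± 1.40 to 8.34 ± 1.98 CPM (SD, n = 4 each), a log2 fold change of 0.86 ± 0.22 (SE, adjusted p = 0.0137 with edgeR). Without the rats lettered F, which were the higher pair in NT, the log2 fold change was 0.58 and was not called (adjusted p = 0.107 with edgeR). At 14 weeks the no DEN rats had 2.80, 3.00, 2.42 and 5.34 CPM and the NT samples 5.52, 8.15, 11.9 and 5.28 CPM. The lowest NT sample, H23, lay just below the highest no DEN rat, H12, so the groups overlapped narrowly. The log2 fold change was 1.21 ± 0.33 (adjusted p = 0.0128 with edgeR), the largest standard error of any of the 10 genes in that comparison. At 20 weeks the NT samples had 6.09, 5.54, 3.93 and 5.37 CPM, beside 4.22, 5.45, 2.76 and 2.81 CPM without DEN, and the difference of 0.47 ± 0.23 did not pass (adjusted p = 0.156 with edgeR), but was called under total counts alone at 0.67 (adjusted p = 0.0409 with edgeR).

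The promoter of Acta2 is shown because CArG boxes, the sites of serum response factor in contractile genes, are known to drive its expression, and that of Lrat because this quiescence gene rose beside it. Both are given 5′ to 3′ over the 250 bases before the RefSeq start in build GRCr8, on the strand of the gene. Capitals mark the CArG box with 1 of its 6 inner bases other than A or T, a looser form that 8.08% of 33469 rat promoter windows of this length hold. For Acta2 the window is chr1:241172504-241172753 (minus strand), and for Lrat chr2:170571213-170571462 (minus strand).
Acta2: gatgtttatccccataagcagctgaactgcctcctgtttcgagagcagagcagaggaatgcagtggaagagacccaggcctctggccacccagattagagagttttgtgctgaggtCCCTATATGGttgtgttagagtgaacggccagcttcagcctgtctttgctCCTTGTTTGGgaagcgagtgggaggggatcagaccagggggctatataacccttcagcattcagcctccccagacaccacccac
Lrat: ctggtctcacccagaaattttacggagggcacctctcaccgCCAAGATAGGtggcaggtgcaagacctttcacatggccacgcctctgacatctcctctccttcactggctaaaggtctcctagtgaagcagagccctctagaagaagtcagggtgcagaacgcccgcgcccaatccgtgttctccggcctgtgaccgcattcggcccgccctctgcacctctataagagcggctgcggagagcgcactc
The Acta2 window held 2 such boxes, 134 to 125 and 84 to 75 bases before the start. That of Lrat held 1, from 209 to 200 bases before it. RefSeq promoters were matched for 6 of the 10 genes, namely Acta2, Des, Vim, Pdgfra, Lrat and Reln. The strict CArG box with A or T at all 6 inner bases was in none of these and in 1.5% of all windows. On both strands, TATAAA was found in Vim alone of the 6 (12.9% of all windows) and GGGCGG in Des, Vim, Lrat and Reln (30.5%). Such a match describes the letters and is no evidence that a factor binds there.

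Tagln encodes transgelin, an actin-binding protein of smooth muscle and myofibroblasts. At 8 weeks it stood at 8.51, 7.13, 6.79 and 5.23 CPM without DEN and at 14.4, 19.4, 11.7 and 14.3 CPM in NT, so the groups did not overlap. At 14 weeks it stood at 7.06, 5.73, 5.20 and 7.20 CPM without DEN and at 13.5, 18.3, 20.9 and 9.48 CPM in NT, again without overlap. The log2 fold change was 1.11 ± 0.17 at 8 weeks and 1.34 ± 0.24 at 14 weeks (adjusted p = 0.000926 and 0.00144 with edgeR). At 20 weeks the NT values were 14.2, 11.7, 6.64 and 10.97 CPM and the no DEN values lay between 5.54 and 7.22 CPM. The NT sample of rat H26 was inside the no DEN range, and the log2 fold change was 0.83 ± 0.21 (adjusted p = 0.0179 with edgeR).

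Des and Vim encode desmin, the filament protein of muscle and of rodent stellate cells, and vimentin, that of mesenchymal cells in general. Des increased at 8 weeks, from a mean of 2.73 ± 0.60 to 6.87 ± 0.99 CPM (SD, n = 4 each), the lowest NT rat at 5.81 CPM and the highest no DEN rat at 3.36 CPM. This was a log2 fold change of 1.33 ± 0.18, beside 1.05 ± 0.20 at 14 weeks and 0.63 ± 0.19 at 20 weeks (adjusted p = 0.000367, 0.00118 and 0.0302 with edgeR). The level of Vim went up from 23.7 ± 4.05 to 54.1 ± 8.34 CPM at 8 weeks and from 22.3 ± 1.12 to 47.3 ± 8.88 CPM at 14 weeks, and its groups did not overlap at either time. Its log2 fold change was 1.19 ± 0.14, 1.12 ± 0.13 and 0.80 ± 0.21 at the 3 times (adjusted p = 0.000159, 7.4e-05 and 0.0218 with edgeR). Vim is also expressed by endothelial cells and leukocytes. Of 5 endothelial markers, 4 were called higher in NT at each time, beside 16.5%, 22.8% and 14.3% of all genes, and Kdr was not called (0.30 ± 0.15, 0.48 ± 0.18 and 0.70 ± 0.29). Of 6 leukocyte markers, 5 were called higher at 8 weeks, 4 at 14 weeks and 2 at 20 weeks, and none lower, with the macrophage marker Cd163 at -0.34 ± 0.12 at 8 weeks.

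Thy1, a surface glycoprotein of activated fibroblasts and of T cells, had the largest change of the 10 genes. At 8 weeks it was read from 3 to 7 pairs per no DEN library, 0.20, 0.29, 0.12 and 0.24 CPM, and from 26 to 51 pairs per NT library, 1.57, 0.85, 0.99 and 0.89 CPM. At 14 weeks the no DEN libraries held 2 to 4 pairs each, 0.07 to 0.14 CPM, and the NT libraries 62 to 81, with 1.88, 2.07, 2.0 and 1.82 CPM. All NT samples lay above all no DEN rats at both times. The fitted log2 fold change was 2.32 ± 0.34 at 8 weeks and 4.16 ± 0.25 at 14 weeks (adjusted p = 0.000685 and 1.9e-06 with edgeR), given as a description, since Thy1 was tested only because of its NT counts. As the no DEN level rests on few pairs, the ratio of pooled pairs, each group divided by its pooled library size, carries a wide interval, 5.10 at 8 weeks (3.20 to 8.50) and 18 at 14 weeks (10.2 to 35.3). These are exact 95% binomial intervals, which cover counting error only and treat each pair as an independent molecule. At 20 weeks Thy1 was below the filter on low counts and was not tested. The no DEN libraries then held 3, 1, 0 and 1 pairs and the NT libraries 14, 9, 173 and 31, and the ratio of pooled pairs was 14.2 (6.01 to 44.2), to which the deepest library, H26, gave 173 of 227 NT pairs. Without H26 it was 8.82 (3.56 to 28.3). The NT levels of 0.45, 0.25, 1.04 and 0.86 CPM still lay above the highest no DEN value of 0.14 CPM. Without the filter the test gave a log2 fold change of 3.48 ± 0.69 (adjusted p = 0.00368 with edgeR). Beside Thy1, the T cell marker Cd3e, named here after its values were seen, was higher in NT at 8 and 14 weeks by 1.01 ± 0.35 and 1.32 ± 0.40 on the log2 scale. At 20 weeks it was at 0.81 ± 0.31 and was not called (adjusted p = 0.0717 with edgeR).

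Loxl2 encodes lysyl oxidase-like 2, a secreted enzyme that crosslinks collagen and elastin. At 8 weeks its no DEN values lay between 1.79 and 2.27 CPM and its NT values between 3.62 and 5.68 CPM. At 14 weeks they were 3.55, 1.92, 1.78 and 1.89 CPM without DEN and 7.63, 7.59, 8.74 and 8.33 CPM in NT. The groups did not overlap at either time, although the no DEN rat H09 stood well above the other 3. The log2 fold change was 1.19 ± 0.19 at 8 weeks and 1.85 ± 0.20 at 14 weeks (adjusted p = 0.00103 and 3.7e-05 with edgeR). At 20 weeks the NT samples, from other rats, had 3.16, 3.14, 4.77 and 3.42 CPM, beside 3.05, 2.08, 2.04 and 1.51 CPM without DEN. The log2 fold change was 0.76 ± 0.23 (adjusted p = 0.0294 with edgeR). With all 8 groups in one fit it was 0.75 and was not called (adjusted p = 0.0785 with edgeR).

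The receptors did not follow the activation genes. Pdgfrb, the receptor for PDGF-B and PDGF-D on stellate cells and pericytes, stood at 49.5, 55.0, 46.4 and 45.1 CPM without DEN at 14 weeks and at 30.4, 33.6, 34.3 and 29.6 CPM in NT. All NT values lay below all no DEN values, and the log2 fold change was -0.58 ± 0.08 (adjusted p = 0.0002 with edgeR). When libraries were scaled by their total counts alone, this became -0.15 (adjusted p = 0.182 with edgeR), while the median of all genes moved from 0.02 to 0.44, so the fall of Pdgfrb was a fall relative to most genes. At 8 and 20 weeks Pdgfrb differed by -0.39 ± 0.12 and -0.34 ± 0.10, with an adjusted p of 0.0282 and 0.0307 with edgeR, but below the fold threshold. Pdgfra, the receptor that also binds PDGF-A and PDGF-C, was called at no time in NT. Its log2 fold change was 0.44 ± 0.14 at 8 weeks, where the no DEN rats spread from 9.28 to 14.9 CPM and the NT rats from 14.8 to 16.9 CPM, 0.11 ± 0.09 at 14 weeks and -0.05 ± 0.13 at 20 weeks. At 8 weeks leaving out 1 no DEN rat gave a call for each receptor, Pdgfra higher without H06 (0.59, adjusted p = 0.00472 with edgeR) and Pdgfrb lower without H08 (-0.50, adjusted p = 0.00474 with edgeR).

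Lrat, which encodes the enzyme that esterifies retinol for storage, rose as well, although it is a gene of the resting cell. At 8 weeks its level was 13.6, 15.9, 16.7 and 28.4 CPM without DEN and 30.9, 27.1, 32.7 and 41.9 CPM in NT. The groups overlapped through the no DEN rat H08 alone, which was above the NT rat F10. At 14 weeks the no DEN rats had 28.04, 14.5, 22.6 and 20.0 CPM and the NT samples 35.2, 26.2, 33.8 and 31.9 CPM, and H21 was the NT sample inside the no DEN range. The log2 fold change was 0.82 ± 0.23 at 8 weeks and 0.61 ± 0.17 at 14 weeks (adjusted p = 0.0202 and 0.0145 with edgeR). Both calls depended on single rats, since leaving out the no DEN rat H07 at 8 weeks gave 0.77 with an adjusted p of 0.0629 with edgeR. At 14 weeks leaving out the NT sample of F06 gave 0.54 (adjusted p = 0.0505 with edgeR), and leaving out the no DEN rat H10 gave 0.47, below the fold threshold. At 20 weeks NT and no DEN means were 24.1 ± 4.24 and 21.4 ± 5.19 CPM (SD, n = 4 each) and the difference was 0.18 ± 0.17 (adjusted p = 0.434 with edgeR).

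Reln, which encodes the secreted glycoprotein reelin and is expressed in liver by stellate cells, was called in no comparison. Its NT means were 30.6 ± 4.85, 33.7 ± 3.69 and 28.4 ± 7.30 CPM at 8, 14 and 20 weeks, beside 24.2 ± 5.41, 30.4 ± 2.40 and 29.3 ± 1.87 CPM without DEN (SD, n = 4 each). The log2 fold changes were 0.33 ± 0.16, 0.18 ± 0.09 and -0.03 ± 0.15. Under scaling by total counts alone, Reln and Pdgfra were both called higher at 8 and 14 weeks, by 0.54 and 0.61 for Reln and 0.64 and 0.53 for Pdgfra on the log2 scale, where the median of all genes had itself moved to 0.19 and 0.44.

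**Figure D2:**
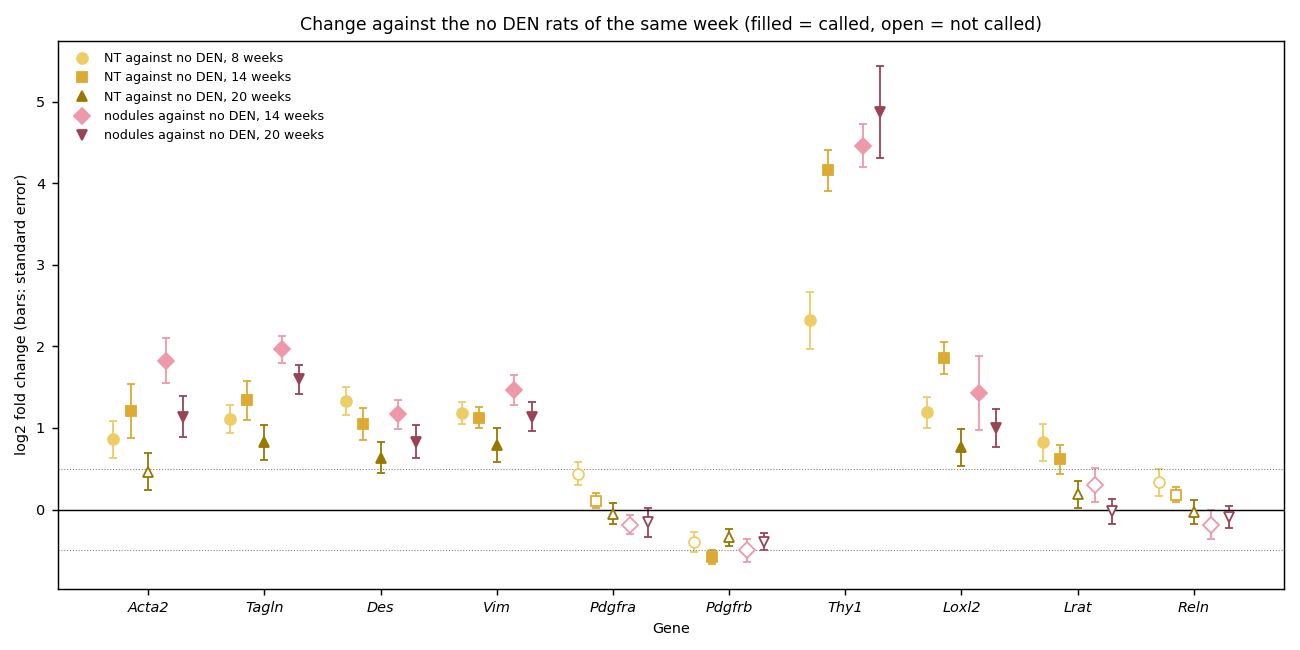
Log2 fold change (vertical axis, bars are standard errors) of each gene against the no DEN rats of the same week. Circles, squares and upward triangles are NT at 8, 14 and 20 weeks, and diamonds and downward triangles are nodules at 14 and 20 weeks. Filled symbols were called and open ones were not, dotted lines mark 0.5 and -0.5, and Thy1 has no NT value at 20 weeks because it was not tested there. The 6 activation genes Acta2, Tagln, Des, Vim, Thy1 and Loxl2 lie above 0 throughout, and Pdgfrb lies below 0 throughout under TMM scaling, although in nodules it turned to 0.07 and 0.09 under total counts.

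Nodules were compared with the same no DEN rats as NT, so both sets of comparisons share their controls. In nodules, 6 of the 10 genes were higher at 14 weeks and 6 at 20 weeks, and they were Acta2, Tagln, Des, Vim, Thy1 and Loxl2 at both times. No member was lower. Over all genes, 23.9% of 11316 were higher and 15.2% lower at 14 weeks, and 23.6% of 11199 were higher and 15.2% lower at 20 weeks. The higher genes were 61.2% and 60.8% of those called, and 93.3% and 91.9% under total counts alone. The median of the 10 genes was 1.30 at 14 weeks and 0.92 at 20 weeks, beside 0.0017 and 0.007 over all genes. Thy1 again passed the filter only through the nodules.

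Acta2 in nodules was 8.48, 15.9, 12.3 and 12.2 CPM at 14 weeks and 9.62, 6.35, 10.9 and 7.15 CPM at 20 weeks, always above the no DEN rats of the same week. Its log2 fold change was 1.83 ± 0.28 and 1.14 ± 0.25 (adjusted p = 0.000664 and 0.00397 with edgeR). Tagln was 22.8, 31.9, 23.3 and 21.6 CPM at 14 weeks and 24.7, 13.5, 18.8 and 18.6 CPM at 20 weeks, with log2 fold changes of 1.96 ± 0.17 and 1.59 ± 0.18. Both contractile genes thus had no overlap with the no DEN rats at either time. Thy1 was 2.01, 2.34, 2.78 and 2.68 CPM at 14 weeks, from 118 to 207 pairs per rat, and 1.78, 0.95, 2.24 and 2.43 CPM at 20 weeks. The ratio of its pooled pairs to those of the no DEN rats was 23 (13.1 to 44.7) and 31.6 (13.4 to 97.6). Des rose by 1.17 ± 0.18 and 0.83 ± 0.20 on the log2 scale and Vim by 1.47 ± 0.18 and 1.14 ± 0.18.

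Loxl2 in nodules differed sharply between rats at 14 weeks, with 1.79 CPM in rat F06 and 8.18, 6.44 and 8.63 CPM in the rats lettered H. The summed reads of both nodules of F06 thus gave a value inside the no DEN range of 1.78 to 3.55 CPM, with nodule 2 at 2.7 CPM and nodule 1, at 0.80 CPM, below that range. Nodule 1 of F06 was the shallowest of the 40 libraries and had the highest share of pairs in the summary lines of the counting (45.4%). Over the 4 rats the log2 fold change was 1.43 ± 0.46 (adjusted p = 0.0269 with edgeR). The call was lost in 6 of the 8 fits that left out 1 rat, with log2 fold changes of 1.27 to 1.46 in those fits, and with nodule 1 of each rat alone (1.58, adjusted p = 0.0696 with edgeR). At 20 weeks the values were 3.64, 4.59, 5.63 and 3.87 CPM, and the log2 fold change was 1.0 ± 0.23 (adjusted p = 0.00488 with edgeR), but with nodule 1 alone it was 0.57 and was not called (adjusted p = 0.278 with edgeR). Lrat was not called in nodules, with 0.30 ± 0.21 at 14 weeks, where total counts alone gave a call at 0.87 (adjusted p = 0.00418 with edgeR), and -0.02 ± 0.15 at 20 weeks, and neither was Reln, with -0.19 ± 0.18 and -0.09 ± 0.13. Pdgfrb differed by -0.50 ± 0.14 and -0.39 ± 0.11 with an adjusted p of 0.016 and 0.0114 with edgeR, short of the fold threshold. At 14 weeks it was called lower in 4 of the 8 fits that left out 1 rat, for example at -0.60 without F06 (adjusted p = 0.000177 with edgeR), and with nodule 2 alone (-0.58, adjusted p = 0.000517 with edgeR). Under scaling by total counts alone the differences turned to 0.07 and 0.09. Pdgfra differed by -0.18 ± 0.11 and -0.16 ± 0.17.

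Nodules were then set against NT of the same rats. With tissue as the only term, no member was called at 14 or 20 weeks, and neither was any of 11466 and 11546 genes (0% higher and 0% lower at both times) with edgeR. At an unadjusted p below 0.05, 1348 and 2767 genes differed with edgeR, and DESeq2 called 40 and 881. Because NT and nodules came from the same animals, the fit with the rat as a block was made too. It called no gene at 14 weeks, and at 20 weeks 9.21% of genes were higher and 5.46% lower, Tagln and Thy1 being the 2 members among the higher. Thy1 was higher in nodules by 1.48 ± 0.20 on the log2 scale (adjusted p = 0.000241 with edgeR and the rat as a block), and was higher in the nodules of 4 of 4 rats. Its NT and nodule levels were 0.45 and 1.78 CPM in F03, 0.25 and 0.95 in H25, 1.04 and 2.24 in H26 and 0.86 and 2.43 in H28. Tagln was higher by 0.80 ± 0.21 (adjusted p = 0.0351 with edgeR and the rat as a block), also in 4 of 4 rats. Acta2, at 0.68 ± 0.21, missed the threshold in that fit (adjusted p = 0.051 with edgeR), and Vim, at 0.37 ± 0.11, passed it on p (adjusted p = 0.0355 with edgeR) but not on fold. DESeq2 without the block called Acta2 higher at 0.68 (adjusted p = 0.0288 with DESeq2), as well as Tagln and Thy1. In the blocked fit, the 3 cholangiocyte markers Krt19, Epcam and Sox9 were also higher in nodules at 20 weeks, as were the portal fibroblast markers Entpd2 (0.85 ± 0.15) and Eln (0.63 ± 0.14), while the hepatocyte markers Alb, Ttr and Cps1 were lower, by -0.51 to -0.72. Not called were the cholangiocyte marker Cftr (0.44 ± 0.27), the portal fibroblast marker Dpt (-0.19 ± 0.10) and the hepatocyte markers Serpina1 (-0.33 ± 0.16) and Apoa1 (0.50 ± 0.15). These genes are named after their values were seen, and their part in the values of Thy1 and Tagln was not tested.

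At 14 weeks Acta2 and Tagln were also higher in the nodules of 4 of 4 rats, by 0.68 ± 0.20 and 0.70 ± 0.16 with the rat as a block, but without a call (adjusted p = 0.18 and 0.167 with edgeR). Thy1 differed by 0.30 ± 0.15 there. Lrat and Reln were lower in nodules than in NT at 14 weeks by -0.29 ± 0.13 and -0.37 ± 0.13, values that did not pass (adjusted p = 0.248 and 0.204 with edgeR and the rat as a block).

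**Figure D3:**
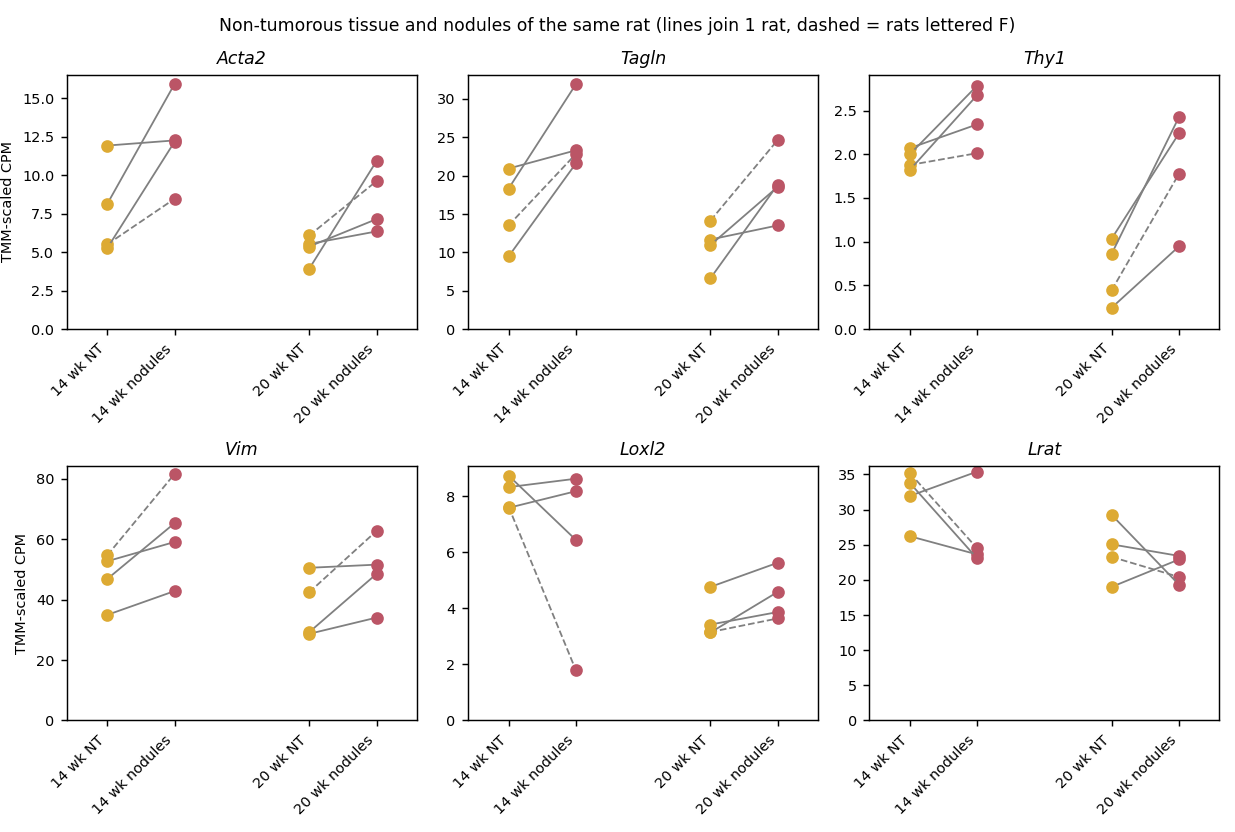
TMM-scaled CPM (vertical axes, starting at 0) of 6 genes in NT (yellow) and nodules (red) of the same rats at 14 and 20 weeks. Lines join the samples of 1 rat, dashed for the rats lettered F. Acta2, Tagln, Thy1 and Vim rise from NT to nodules in 4 of 4 rats at both times, and Loxl2 falls to 1.79 CPM in the nodules of F06.

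The 2 nodules of a rat were compared with each other as libraries. For Acta2 the higher nodule had 1.12 to 1.87 times the level of the lower over the 8 rats, and for Vim 1.04 to 1.29 times. Loxl2 varied most. In F03 it was 1.03 CPM in nodule 1 and 5.70 CPM in nodule 2, and in F06 0.80 and 2.7 CPM, ratios of 5.53 and 3.40, whereas the other 6 rats had ratios of 1.11 to 1.46. The 2 low libraries, nodule 1 of F06 and of F03, also had the highest shares of pairs in the summary lines of the counting, 45.4% and 41.3%, with 34.5% of pairs outside annotated features in the first and 16.3% not uniquely aligned in the second. The part of this in the Loxl2 values was not tested. Thy1 differed by 2.23 and 2.25 times between the nodules of H23 and H25 and by 1.0 to 1.63 times in the others. In F03 the same nodule 2 was higher than nodule 1 for every member. Examples are Acta2 (12.4 and 6.64 CPM), Tagln (33.0 and 15.2 CPM) and Pdgfra (21.7 and 10 CPM). The quiescence genes Reln (26.9 and 17.4 CPM) and Lrat (21.9 and 20.6 CPM) were among them.

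Whether the effect of DEN changed with time was tested by the interaction of treatment and week, called at an adjusted p of 0.05 or less with no fold threshold. Between 8 and 14 weeks in NT the effect on Thy1 increased by 1.84 ± 0.47 on the log2 scale (adjusted p = 0.0244 with edgeR). Thy1 was the only member called, beside 8.96% of 11219 genes. It passed the filter on low counts only through NT here too, so this value and this call are a description. The call was lost with all 8 groups in one fit, at 1.81 (adjusted p = 0.13 with edgeR), and when no DEN rat H06, H08 or H11 was left out, with 1.65, 1.77 and 1.68 and adjusted p values of 0.0614, 0.0535 and 0.056 with edgeR. Between these times the mean level of Thy1 went from 1.07 to 1.94 CPM in NT and from 0.21 to 0.11 CPM without DEN, the latter on 21 and 12 pairs, so the change combines a higher NT level and a lower no DEN level. Loxl2 changed by 0.67 ± 0.29 and Acta2 by 0.35 ± 0.43 between these times without a call. Without the no DEN rat H09 the change of Loxl2 was 0.95 and was called (adjusted p = 0.0269 with edgeR). Between 14 and 20 weeks no member was called in NT, where 0.738% of 11245 genes were, and none in nodules, where 0.0862% of 11607 genes were. At an unadjusted p below 0.05, 1912 and 378 genes changed with edgeR, and DESeq2 called 386 and 29. Among the 10 genes the largest decrease in NT between these times was that of Loxl2, at -1.08 ± 0.32 (adjusted p = 0.11 with edgeR), and Acta2 changed by -0.74 ± 0.43. DESeq2 called the decrease of Loxl2, at -1.10 (adjusted p = 0.0285 with DESeq2). With edgeR it was called without no DEN rat H09, at -1.37 (adjusted p = 0.0282 with edgeR), and without the NT sample of H26, at -1.25 (adjusted p = 0.0395 with edgeR).

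Ordered by mean level, nodules at 14 weeks came first for Acta2, Tagln, Vim and Thy1, NT at 14 weeks for Loxl2 and Reln, and NT at 8 weeks for Des, Pdgfra and Lrat. For the 6 activation genes, the 3 no DEN groups held the lowest ranks. Pdgfrb had the opposite order, with the 3 no DEN groups first and nodules at 20 weeks last. The highest group mean was 41.6 times the lowest for Thy1, 4.06 times for Tagln, 4.01 times for Loxl2 and 3.60 times for Acta2, but 1.78 times for Lrat, 1.39 times for Reln and 1.36 times for Pdgfra. For each of the 10 genes, all 7 pairs of neighbouring groups in this order overlapped.

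Genes of the pathways around these markers were counted in fixed lists, of which those in NT at 14 weeks are given against the same background of 22.8% higher and 9.85% lower. Of 10 contractile genes other than Acta2 and Tagln, 2 were higher and none lower, a share near the background, with a median of 0.42 beside 0.02 over all genes. These were Actn1, an actin crosslinker (0.95 ± 0.09), and Tpm2, a tropomyosin (0.73 ± 0.27). None of the 4 vascular smooth muscle markers Myh11, Cnn1, Actg2 and Lmod1, which are part of the contractile list, was called at 14 or 20 weeks in NT or nodules, and 1, Actg2, was higher in NT at 8 weeks. Their summed level at 14 weeks was 3.63 to 11.7 CPM without DEN and 4.55 to 7.87 CPM in NT. Srf, the serum response factor gene and the only tested gene of its list, differed by -0.15 ± 0.07 (adjusted p = 0.117 with edgeR). Of 3 other intermediate filament genes, Nes, which encodes nestin, was higher (1.18 ± 0.31) and none was lower.

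Of 8 genes of the transforming growth factor beta axis, 5 were higher in NT at 14 weeks and none lower (median 0.73), and 3 were higher at 8 weeks and 2 at 20 weeks, where 16.5% and 14.3% of all genes were. In NT at 14 weeks the ligand genes Tgfb2 and Tgfb1 rose by 2.66 ± 0.27 and 0.91 ± 0.16 on the log2 scale, and the matricellular gene Ctgf by 1.25 ± 0.15. Of the 4 PDGF ligand genes, 3 were higher, Pdgfd by 2.66 ± 0.45, Pdgfc by 1.20 ± 0.17 and Pdgfa by 0.93 ± 0.20, while the receptor Pdgfrb was lower.

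Of 5 collagen crosslinking enzymes other than Loxl2, 4 were higher and 1 lower in NT at 14 weeks (median 2.0). Lox rose by 2.95 ± 0.41, Plod2, a lysyl hydroxylase, by 2.21 ± 0.24, Loxl1 by 2.0 ± 0.30 and Loxl3 by 0.85 ± 0.24, whereas Loxl4 fell by 0.74 ± 0.23. Lox was below the filter on low counts at 8 and 20 weeks and was not tested there. At 14 weeks it may have passed only through NT, where it was higher, so its place in this count and median is a description. Of 8 scar matrix genes tested, 6 were higher and 1 lower (median 1.18). Spp1, which encodes osteopontin, rose by 2.12 ± 0.31, the collagen genes Col1a1 and Col3a1 by 1.94 ± 0.39 and 1.18 ± 0.10, and Timp1, an inhibitor of matrix metalloproteinases, by 1.18 ± 0.17. Fn1, which encodes fibronectin and is abundant in hepatocytes, fell by 0.67 ± 0.12. Col1a2 had 0 counted pairs in every library, while Col1a1 and Col3a1 were counted in all groups, so this 0 cannot be read as absent expression.

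Other genes of the resting stellate cell were mixed. Of 16 tested, 5 were higher and 2 lower in NT at 14 weeks, with a median of 0.18. At 8 weeks 8 of 15 were higher and none lower (median 0.53), beside 16.5% and 5.21% of all genes. In NT at 14 weeks, Ednrb, an endothelin receptor also found on endothelium, rose by 2.09 ± 0.10 and Rgs5, a pericyte gene, by 1.56 ± 0.19. Cygb, the globin of stellate cells, rose by 1.30 ± 0.16 and Hgf by 0.83 ± 0.12 at that time. Ecm1 and Pth1r then fell by 0.69 ± 0.09 and 0.60 ± 0.10. In nodules at 14 weeks 4 of 16 genes of this list were higher and 4 lower, beside 23.9% and 15.2% of all genes. None of 4 quiescence transcription factors was called at 14 weeks. At 8 weeks Lhx2, Tcf21 and Hand2, named here after their values were seen, were higher by 0.88 ± 0.19, 0.86 ± 0.18 and 0.89 ± 0.20. Gata4, the remaining gene of that list, was at -0.06 ± 0.14 and was not called. In the retinoid list, 4 of 9 genes were higher and 2 lower at 14 weeks. The retinoic acid-degrading enzymes Cyp26a1 and Cyp26b1 rose by 2.79 ± 0.27 and 1.02 ± 0.25, and the retinaldehyde dehydrogenases Aldh1a1 and Aldh1a2 by 1.69 ± 0.15 and 1.12 ± 0.18. The receptor gene Rarb fell by 0.98 ± 0.12 and the retinol dehydrogenase gene Rdh10 by 0.62 ± 0.10.

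Among the marker lists of other cells in NT at 14 weeks, 4 of 5 endothelial, 4 of 6 leukocyte and 4 of 4 cholangiocyte markers were higher and none lower, Msln, the only mesothelial marker tested, was higher, and of 5 hepatocyte markers 1 was higher and 3 lower. Of 3 portal fibroblast markers tested, Eln and Entpd2 were higher by 1.81 ± 0.22 and 0.99 ± 0.24 and Dpt lower by 0.74 ± 0.12. The summed level of that list, carried mostly by Dpt, was 531.67 to 636.64 CPM without DEN and 306.8 to 421.46 CPM in NT, and 1 of its 5 genes, Mfap4, was at 0 in all libraries.

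**Figure D4:**
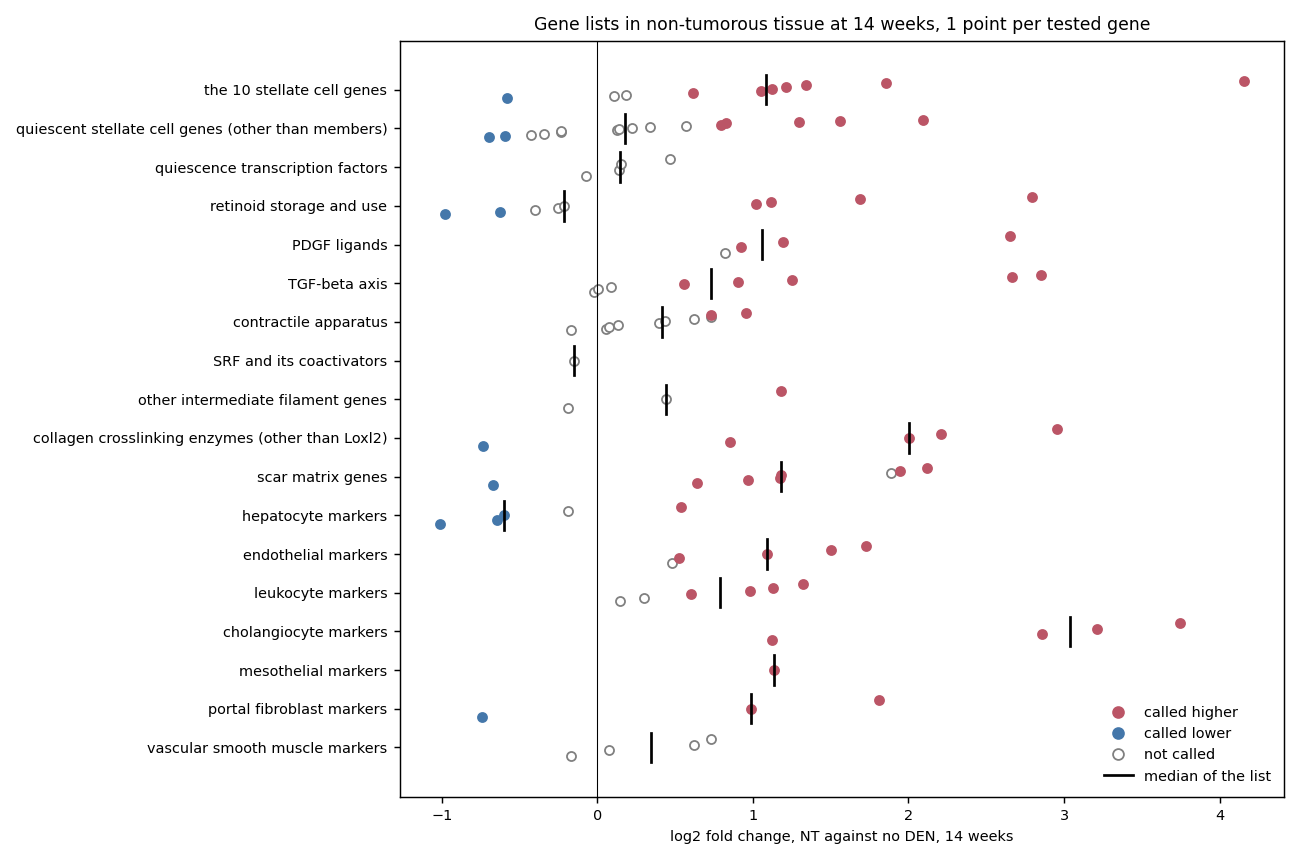
Log2 fold change in NT against no DEN at 14 weeks (horizontal axis) for every tested gene of each list, 1 point per gene and 1 row per list. Red points were called higher, blue lower, and open points were not called, and black bars are list medians. The medians run from -0.60 for the hepatocyte markers to 3.03 for the cholangiocyte markers, with 1.09 for the 10 stellate cell genes.

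Finally, the genes whose mean log2 CPM over the 8 groups was most like that of 4 of the members were ranked among 10067 genes, as a description over 8 points that share their libraries. For Acta2 they were Lmnb2, Itgb3bp, Nrgn, Rgl2 and Gpx8, with Pearson's r of 0.985 to 0.989. For Thy1 they were Tmem165, Plod2, Tusc3, Ehd4 and Timeless (0.993 to 0.997). The genes most like Lrat were Ccdc80, Col14a1, P3h2, Prss23 and Prelp (0.95 to 0.983), and those most like Reln were Akap7, Dis3, Calcrl, Trdmt1 and Gucy1b3, at a lower likeness of 0.819 to 0.91.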

How the data were processed

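Stranded mRNA libraries were aligned by the authors to rat genome build rn6 with STAR 2.7.1a, and read pairs lying wholly within the exons of a single gene on the reverse strand were counted with HTSeq, according to the submitters' processing notes and the study's methods. The deposited values were raw counts per gene, 1 file per library, with no normalization. The summary lines of the counting, 32.8% to 45.4% of pairs, were left out of library sizes and tests. The samples were grouped by the labels for treatment, week and tissue. Reads from both nodules of an animal were pooled by addition. Genes were filtered by filterByExpr, scaled by TMM and tested in R 4.3.3 with edgeR 4.0.16 (glmQLFit with robust fitting and glmQLFTest), using the groups compared only, with Benjamini-Hochberg adjustment. The study's methods name DESeq2, which was run as an alternative (1.42.0), beside RLE scaling, total counts only, no filter, all 8 groups in 1 fit, no rats lettered F, each rat left out (96 fits), each nodule alone, a stricter threshold and the rat as a block. The rat numbers in the labels tie NT and nodules to the same animal, and same-rat deviations from the group means had correlations of 0.39 to 0.65 over genes, although NT of H21 correlated more with the nodules of another rat (0.522) than with its own (0.486). The fits were tested on simulated data.

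The 10 genes and all lists were chosen with earlier results of these data known. From each list, at most 4 genes were named, those called in NT at 14 weeks with the largest change, and any gene called against the direction of its list. The genes Colec11, Adamtsl2, Cnn2, Fbln2, Krt7, Upk3b, Lrrn4, Mkl1 and Mkl2 of the lists were not analysed here. The values of 1 further list gene are not reported here. Amplified pairs without molecular identifiers are not independent molecules, so p-values rest on the spread between rats. Promoter sequences came from RefSeq in build GRCr8, which differs from that of the counts, so no coordinates were transferred.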

Additional observations from a re-analysis of the deposited data

Results flagged for a closer look

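Among the 80 sets of 4 rats (10 genes in 8 groups), Dixon's ratio of gap to range exceeded its 95% critical value in 3, where chance gives about 1 in 20, or 4. Tagln in nodules at 14 weeks was highest in rat H21, at 31.9 CPM, with the other 3 rats between 21.6 and 23.3 CPM. Loxl2 without DEN at 14 weeks was highest in rat H09, at 3.55 CPM, with the other rats between 1.78 and 1.92 CPM, and leaving H09 out turned the change of the DEN effect on Loxl2 into a call both between 8 and 14 weeks and between 14 and 20 weeks. Lrat in nodules at 14 weeks was highest in rat H23, at 35.4 CPM, with the others between 23.1 and 24.5 CPM.

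The effect of DEN on Thy1 in NT differed between 8 and 14 weeks by 1.84 on the log2 scale in the test of the difference itself (adjusted p = 0.0244 with edgeR). This is a description, since Thy1 passed the filter on low counts only through NT. The call was lost with all 8 groups in one fit (adjusted p = 0.13 with edgeR) and without no DEN rat H06, H08 or H11 (adjusted p = 0.0614, 0.0535 and 0.056 with edgeR). The NT levels of all 4 rats at 14 weeks lay above those of all 4 rats at 8 weeks, while the no DEN mean went from 0.21 to 0.11 CPM, on 21 and 12 pairs in all.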

How the results depend on the processing

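Of 574 single-gene values recomputed under alternatives other than leaving out a rat, 524 kept their direction and side of the threshold, 9 lost the call, 16 gained it and 25 changed sign; the cause was not tested. Total counts alone moved the median of all genes by 0.113 to 0.566 on the log2 scale, and RLE scaling by -0.0236 to 0.00788. Under total counts, signs changed in NT at 20 weeks for Pdgfra (0.16) and Reln (0.20), in nodules against no DEN at 14 weeks for Pdgfra (0.39), Pdgfrb (0.070) and Reln (0.38), at 20 weeks for Pdgfra (0.31), Pdgfrb (0.090), Lrat (0.47) and Reln (0.41), and in nodules against NT at 20 weeks for Pdgfra (0.15), Pdgfrb (0.21), Lrat (0.068) and Reln (0.22). Without the rats lettered F they changed for Reln in NT at 20 weeks (0.057), Reln in nodules against no DEN at 14 weeks (0.0025), Reln (0.029) and Lrat (0.019) at 20 weeks, and Pdgfrb in nodules against NT at 14 weeks (-0.025). With nodule 2 alone at 20 weeks they changed against no DEN for Pdgfra (0.040), Lrat (0.079) and Reln (0.049), and against NT for Pdgfra (0.10), Pdgfrb (0.0048) and Reln (0.092), and with nodule 1 alone against NT for Loxl2 (-0.14). None of the values before or after these changes of sign was called. The stricter threshold reduced the genes called in NT from 2344 to 855 (8 weeks), 3592 to 1676 (14 weeks) and 1957 to 565 (20 weeks), those in nodules against no DEN from 4425 to 2117 (14 weeks) and 4347 to 1946 (20 weeks), and left of the 10 genes 5 in NT at 14 weeks and 0 at 20 weeks. Without the rats lettered F, 2 of the 10 were called in NT at 20 weeks. In nodules against NT, DESeq2 called 40 genes at 14 weeks and 881 at 20 weeks, all 8 groups in 1 fit 1096 at 20 weeks, nodule 1 alone 218 and the rat as a replicate block 1693, with 3 of the 10 genes called by DESeq2, 2 in the fit of all groups and 2 with the block. The block changed no other call of the 10 genes. For the change between 8 and 14 weeks in NT, 1005 genes became 1522 with DESeq2, 1852 with total counts and 151 with all groups, where 0 of the 10 genes were called. Between 14 and 20 weeks 83 became 386 with DESeq2 (1 of the 10 genes), 144 with total counts, 41 with all groups and 182 without the rats lettered F, and in nodules 10 became 29 with DESeq2, 16 with all groups and 5 with nodule 1 alone. Leaving out 1 rat gave 1 to 5 of the 10 genes in NT at 20 weeks, 0 to 445 genes in nodules against NT at 20 weeks, 533 to 1870 genes and 0 to 2 of the 10 between 8 and 14 weeks, 31 to 408 genes and 0 to 1 of the 10 between 14 and 20 weeks in NT, and 6 to 15 genes in nodules. Signs changed among these fits for Pdgfra (-0.19 to 0.015) and Reln (-0.20 to 0.057) in NT at 20 weeks, Reln in nodules against no DEN at 14 weeks (-0.26 to 0.0025), Lrat (-0.11 to 0.15) and Reln (-0.18 to 0.029) at 20 weeks, Pdgfrb in nodules against NT at 14 weeks (-0.025 to 0.18), Pdgfrb (-0.11 to 0.12) and Reln (-0.083 to 0.040) at 20 weeks, and the change of Thy1 between 14 and 20 weeks in NT (-1.08 to 0.16). Depth limits Thy1 most, which had 0 to 7 pairs per no DEN library.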
